A study of Mus musculus with 29 samples.

Results

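Gene expression in the prefrontal cortex of naive mice was compared with expression in the caudate-putamen of naive mice. The comparison used 12 of the 29 arrays of the study. These were the prefrontal arrays titled control 3 and 4 and the caudate-putamen arrays titled control 1 and 2, each from 3 strains, which gives 6 arrays per region and 2 per region and strain. The strains were FVB/N, the parent strain, AChE-S, a line on the FVB/N background that expresses the human AChE-S variant, and AChE-R, a line on the same background that expresses human AChE-R. AChE is acetylcholinesterase, the enzyme that breaks down acetylcholine. The promoter that drives the human genes, the age of the mice and the number of mice behind an array are unknown here, and the labels name no sex. The arrays are labelled naive; the labels' protocol describes saline injection for the unexposed mice, and whether the naive arrays come from saline-injected mice is not stated. Since nothing says that the arrays came from separate animals, p-values measure only the spread between these arrays, which may be technical.

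The prefrontal cortex holds layered glutamatergic projection neurons and local GABAergic interneurons. The caudate-putamen, the dorsal part of the striatum, is built mostly of GABAergic spiny projection neurons, with a small population of cholinergic interneurons that supply the region's acetylcholine. Spiny neurons of the direct pathway carry dopamine D1 receptors and make substance P and dynorphin. Those of the indirect pathway carry dopamine D2 receptors and make enkephalin. Both receive dopamine from the midbrain and glutamate from the cortex, and fibre bundles of the internal capsule run through the region.

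The values are log2 signals of probe sets, the groups of probes that report 1 transcript. A difference is given as prefrontal cortex minus caudate-putamen on the log2 scale ± its standard error from limma, adjusted for strain. A called difference has a Benjamini-Hochberg adjusted p under 0.05 over the 22626 probe sets tested. A gene is represented by its probe set with a single symbol and the highest mean signal; 12393 genes had one. Some genes of the lists used here, among them Drd1, Adora2a, Adcy5, Gnal, Chat, Slc17a7 and Emx1, had no such probe set and are not analysed here. In tissue that mixes cell types, fewer cells of a type and less RNA per cell cannot be told apart.

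The deposited medians of the arrays were 7.66 to 7.70 in the prefrontal cortex and 7.72 to 7.77 in the caudate-putamen, with no overlap. The dap controls, bacterial RNAs added before labelling, read 6.35 to 6.55 and 6.58 to 7.15, also without overlap; the part of either measure in the results was not tested. Replicates of a group correlated at 0.996 to 0.998 over probe sets. The first principal component held 66.3% of the variance and separated the regions. The naive prefrontal arrays 1 and 2, left out here, differed in their sex-linked genes. Xist, the RNA behind X inactivation, read 8.62 to 10.61 there and 6.78 to 7.24 in the 12 arrays used. The Y-linked gene Eif2s3y read 3.42 to 3.83 there against 8.41 to 9.20, and Kdm5d, also Y-linked, 3.58 to 4.32 against 7.20 to 7.74. By these genes the 12 arrays used have the pattern of male mice and prefrontal arrays 1 and 2 that of female mice. Values with control 1 and 2 in place of 3 and 4 therefore set female-pattern cortex against male-pattern caudate-putamen, where sex and the set of arrays cannot be told apart. The array titled FVB/N caudate-putamen control 2 has a description that names MPTP, a compound toxic to dopamine neurons, while its title, source and characteristics say naive. Its signal for Lcn2, a gene of the acute response to injury, lay at 4.79, within the 4.65 to 5.11 of the naive caudate-putamen and below the 6.35 to 9.81 of the MPTP-exposed caudate-putamen. It was kept as naive, and counts without it are given.

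Of the 22626 probe sets, 10972 were called (48.5%), 4896 higher in the prefrontal cortex (21.6%) and 6076 lower (26.9%). Without FVB/N caudate-putamen control 2, 10380 were called. The balance of directions depended on scaling: with each array's median subtracted, 59.6% of 11245 called probe sets were higher, against 44.6% as deposited. A difference of at least 1 was called for 578 probe sets (2.55%), 236 higher and 342 lower. At a difference of at least 2, 29 were higher and 58 lower. The arrays of the regions did not overlap for 22.8% of probe sets. Counted by gene, 20.2% were called higher and 29.6% lower, and the median over genes was -0.03. With prefrontal control 1 and 2 in place of 3 and 4, 11291 probe sets were called, 57.3% of them higher. Of the genes described here, Avp (-0.82), Bcl11b (-0.05), Chrm3 (0.11), Olig2 (-0.03) and Sst (-0.14) lost their call with these arrays, Camk2a (-0.67) and Syt1 (-0.88) lost it and changed sign, and Gria3 (-0.96), Ap2a1 (0.26) and Vwf (0.55) were called in the opposite direction. Gene lists whose balance of higher and lower members turned are given with both counts. The shares of called genes are the background for the gene lists that follow.

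Folds are ratios of signals, and for genes near background they understate differences in RNA. Among genes with called differences and no overlap between regions, the largest excess in signal in the caudate-putamen was that of Ttr, which encodes the thyroid hormone carrier transthyretin. It was followed by Isl1, Drd2, Lhx8, Nts, Rgs9, Ido1, Rasgrp2, Ecel1, Penk, Ppp1r1b and Rarb, which were 8.47-fold to 30.1-fold lower in the prefrontal cortex. The largest excess in the prefrontal cortex was that of Neurod6, a transcription factor of cortical projection neurons, followed by Vip, Tnnc1, Myl4, Neurod1, Cck, Rspo2, C1ql3, Ccn3, Smoc2, Frzb and Cd34, which were 4.79-fold to 9.03-fold higher.

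**Figure D1:**
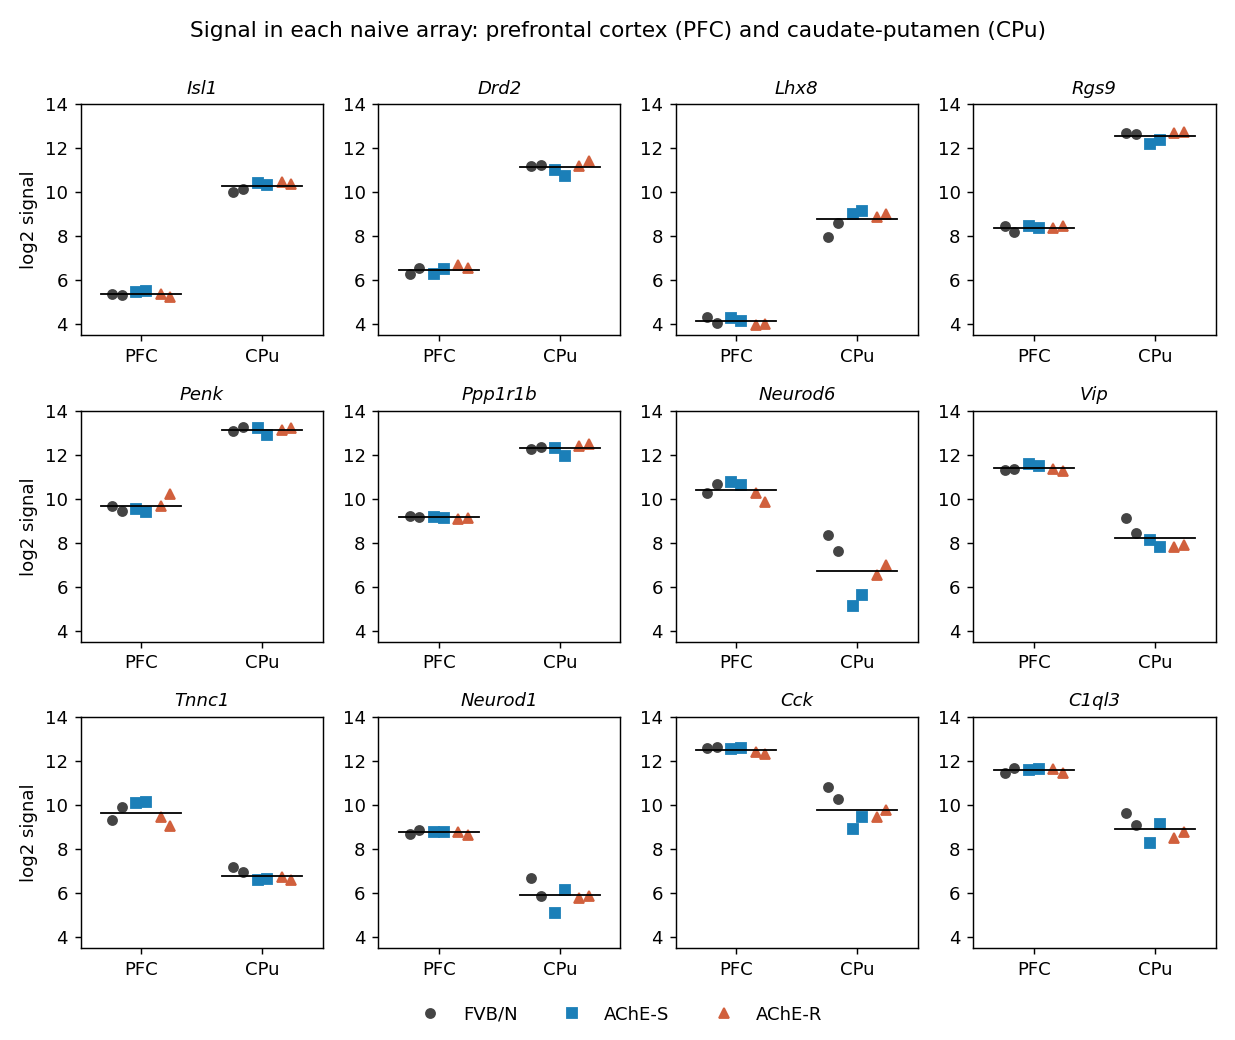
Log2 signal (y axis, 3.5 to 14) of 12 genes in each naive array of the prefrontal cortex (PFC) and caudate-putamen (CPu); symbols give the strain and horizontal lines the mean of 6 arrays. The 12 genes are among the largest differences without overlap between regions, so the absence of overlap follows from how they were picked. For Neurod6 the caudate-putamen arrays range from 5.13 to 8.37.

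Genes of spiny projection neurons were lower in the prefrontal cortex. Of 21 measured genes shared by both pathways, 20 were lower and 0 higher, with a median difference of -1.60; the remaining gene, Arpp19, gave -0.01 ± 0.08. The indirect-pathway list had 3 of 4 lower (median -3.82), with the kainate receptor gene Grik3 at 0.12 ± 0.06. Rgs9 is among these 3 and is also counted in the shared list. The direct-pathway list had 5 of 6 lower (median -0.99), and none of either list was higher.

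Drd2, the D2 dopamine receptor, read 6.29 at the lowest, 6.54 at the median and 6.69 at the highest in the prefrontal cortex, against 10.74, 11.20 and 11.43 in the caudate-putamen. It was 25.0-fold lower in the prefrontal cortex (-4.65 ± 0.08, adjusted p = 8.91e-13), and the strains gave -4.77 in FVB/N, -4.47 in AChE-S and -4.70 in AChE-R. Every caudate-putamen array stood above every prefrontal array by more than the spread within either region. Rgs9, whose product ends D2 receptor signalling by speeding GTP hydrolysis, read 8.21, 8.43 and 8.49 against 12.22, 12.67 and 12.75, a 17.9-fold difference (-4.16 ± 0.08, adjusted p = 1.72e-12). Penk, the enkephalin precursor, read 9.41, 9.61 and 10.23 against 12.91, 13.18 and 13.26 and was 11.1-fold lower (-3.47 ± 0.10, adjusted p = 9.1e-11).

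In the direct pathway, Isl1, a transcription factor that specifies direct-pathway and cholinergic neurons, read 5.23, 5.38 and 5.53 in the prefrontal cortex and 10.03, 10.35 and 10.47 in the caudate-putamen. It was 30.1-fold lower (-4.91 ± 0.06, adjusted p = 5.6e-14), the smallest p of all probe sets. Tac1, the substance P precursor, read 10.20, 10.34 and 10.46 against 12.68, 12.79 and 12.86 (-2.45 ± 0.05, adjusted p = 5.75e-12). Pdyn, the dynorphin precursor, differed less (-1.40 ± 0.10, adjusted p = 2.94e-07), and the regions did not overlap for either peptide gene. Chrm4, the M4 muscarinic receptor that opposes D1 signalling, gave -0.55 ± 0.12 (adjusted p = 0.0023) with overlapping arrays, and its strains ranged from -0.11 in FVB/N to -1.01 in AChE-R.

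Dopamine acts in spiny neurons through cyclic AMP and protein kinase A. Ppp1r1b, which encodes DARPP-32, the phosphatase inhibitor that this kinase switches on, read 9.09, 9.15 and 9.20 in the prefrontal cortex and 11.95, 12.34 and 12.48 in the caudate-putamen. It was 8.83-fold lower (-3.14 ± 0.07, adjusted p = 6.94e-12), and its prefrontal arrays lay close together. The phosphodiesterase genes Pde1b (-2.22 ± 0.05), Pde7b (-1.84 ± 0.11) and Pde10a (-1.60 ± 0.09), whose products break down cyclic nucleotides, were lower too, with no overlap. The cyclic AMP list as a whole went both ways, with 10 of 31 measured genes higher and 12 lower and a median of -0.09. The same held for G protein subunits, 9 of 23 higher and 9 lower. Among regulators of G protein signalling, 6 of 17 were higher and 8 lower; besides Rgs9, those lower by at least 1 were Rgs2 (-1.39 ± 0.08) and Rgs8 (-1.25 ± 0.06).

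Other genes of spiny neurons spanned several functions. Rasgrp2, which activates the small GTPase Rap1 in response to calcium, was 12.7-fold lower in the prefrontal cortex (-3.66 ± 0.12). Rasd2, a striatal small GTPase, was 4.99-fold lower (-2.32 ± 0.06), and Actn2, an actin crosslinker of dendritic spines, 4.80-fold lower (-2.26 ± 0.06). Ido1, the first enzyme of tryptophan breakdown to kynurenine, read 4.93, 5.05 and 5.30 against 8.41, 8.69 and 9.40, a 12.9-fold difference (-3.69 ± 0.12, adjusted p = 2.13e-10). Ptpn5, the striatum-enriched phosphatase STEP, gave -1.59 ± 0.05.

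Dopamine synthesis and uptake genes are expressed mainly by midbrain neurons, whose cell bodies lie outside both regions. The wider dopamine signalling list also holds genes that act in the receiving cells, and its largest differences were those of Drd2, Rgs9 and Ppp1r1b, described above. Of its 11 measured genes, 7 were lower and 1 was higher. Ddc, which makes dopamine from L-DOPA, gave -1.86 ± 0.12 (adjusted p = 1.51e-07). The transporter gene Slc6a3 gave -0.03 ± 0.06 and read 5.54 to 5.89 in the prefrontal cortex and 5.60 to 5.85 in the caudate-putamen. Th, which makes L-DOPA, was not called (0.20 ± 0.29) and spread over 6.68 to 9.53 in the prefrontal cortex, with the extremes in AChE-S control 4 and AChE-R control 4, against 7.68 to 7.99 in the caudate-putamen.

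Retinoic acid directs striatal development through nuclear receptors that bind DNA as pairs of retinoic acid and retinoid X receptors. Of 15 measured genes of this pathway, 7 were lower and 2 higher, but with prefrontal control 1 and 2 in place of 3 and 4, 4 were lower and 8 higher. The largest difference of the list was that of Ttr, whose product also carries the retinol-binding protein and which is described with the choroid plexus genes. Rarb, a retinoic acid receptor, read 7.42, 7.59 and 7.76 in the prefrontal cortex and 10.47, 10.70 and 10.83 in the caudate-putamen, an 8.47-fold difference (-3.08 ± 0.08, adjusted p = 2.12e-11). Its partner receptor gene Rxrg was 6.2-fold lower (-2.63 ± 0.08), and Crabp1, which binds retinoic acid in the cytoplasm, 2.27-fold lower (-1.18 ± 0.07). Rara, another retinoic acid receptor gene, was higher in the prefrontal cortex (0.37 ± 0.05), so receptors of the same family differed in opposite directions.

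The Rarb promoter is known for a retinoic acid response element, which makes the gene its own target, and its sequence is shown because Rarb had the largest difference among the receptor genes of this list. The window lies at chr14:16575487-16575554 of GRCm38.p6, minus strand, before the RefSeq start of the gene, with the match to the element (GTTCA, 5 bases of any kind, AGTTCA) in capitals at positions -52 to -37 from that start.
Rarb: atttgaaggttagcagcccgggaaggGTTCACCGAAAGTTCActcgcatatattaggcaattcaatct
On either strand, this motif occurs in 0.0335% of 32851 RefSeq promoters of 300 bases (250 before the start and 50 after it). Promoters were found for 12 of the 15 pathway genes, and the motif for 2 of these, Rarb and Cyp26a1. The half-sites searched are those of the Rarb element, so the match in Rarb followed from the choice of motif. Cyp26a1, a retinoic acid-degrading enzyme, was not called (-0.10 ± 0.06). A match describes the letters and is not a measured binding site.

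Cholinergic genes were lower in the prefrontal cortex: 8 of 9 measured, with 0 higher and a median of -0.98. The list shares Isl1, its largest difference, with the direct-pathway list and Gbx2 with the thalamic list. Slc18a3, the vesicular acetylcholine transporter, read 5.45, 5.62 and 5.83 in the prefrontal cortex and 7.19, 7.53 and 8.10 in the caudate-putamen (3.95-fold, -1.98 ± 0.10, adjusted p = 1.25e-08). Slc5a7, which takes up choline, gave -0.98 ± 0.13 (adjusted p = 5.11e-05). Lhx8, a transcription factor of cholinergic neurons of the striatum and basal forebrain, read 3.97, 4.11 and 4.35 against 7.99, 8.95 and 9.16, a 25.0-fold difference in signal (-4.64 ± 0.14, adjusted p = 1.54e-10). Its prefrontal signal was about as low as the 3.42 to 4.32 of Eif2s3y and Kdm5d in the arrays of female pattern, so whether Lhx8 RNA was present there is not known and the fold sets no upper limit. The arrays of the regions did not overlap for Slc18a3, Slc5a7 and Lhx8.

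Mouse Ache read 8.66, 8.81 and 8.92 in the prefrontal cortex and 9.64, 9.80 and 10.37 in the caudate-putamen and was 2.17-fold lower in the prefrontal cortex (-1.12 ± 0.10, adjusted p = 1.57e-06). The difference was -0.78 in FVB/N, -1.53 in AChE-S and -1.05 in AChE-R. That of AChE-S differed from that of FVB/N (-0.76, adjusted p = 0.0234; called in 8 of 12 fits with 1 array left out), and the 2 AChE-S caudate-putamen arrays, at 10.22 and 10.37, were the highest of all. The probe set is annotated to the mouse gene; whether it also reads the human transgene is not known here. Bche, the related butyrylcholinesterase, showed no called difference (0.00 ± 0.05), with both regions between 5.29 and 5.52. Among 12 measured acetylcholine receptor genes, 4 were higher and 1 lower; Chrm3, the M3 muscarinic receptor, was the most different (0.99 ± 0.08, adjusted p = 1.05e-06).

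Neuropeptide precursors differed in both directions. Of 25 measured, 7 were higher in the prefrontal cortex and 11 lower, 4 and 8 of them by at least 1, and the arrays did not overlap for 17. With prefrontal control 1 and 2, 11 were higher and 9 lower. Vip, the vasoactive intestinal peptide of a class of cortical interneurons, read 11.27, 11.34 and 11.56 in the prefrontal cortex and 7.81, 8.03 and 9.12 in the caudate-putamen (9.03-fold higher, 3.17 ± 0.16, adjusted p = 1.41e-08). Cck, cholecystokinin, made by interneurons and many cortical projection neurons, read 12.32, 12.56 and 12.64 against 8.93, 9.63 and 10.83 (6.60-fold, 2.72 ± 0.18, adjusted p = 1.57e-07). The caudate-putamen values of both were highest in FVB/N control 1. Grp, gastrin-releasing peptide, was 4.33-fold higher (2.11 ± 0.16) and Adcyap1, the peptide PACAP, 3.29-fold higher (1.72 ± 0.09).

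On the caudate-putamen side, besides Penk, Tac1 and Pdyn, stood Nts, neurotensin, at 5.77, 6.05 and 6.23 in the prefrontal cortex and 9.60, 10.37 and 10.81 in the caudate-putamen (20.3-fold lower, -4.34 ± 0.14, adjusted p = 2.21e-10). Cartpt, the precursor of CART peptides, was 4.38-fold lower (-2.13 ± 0.12). Oxt (-1.79 ± 0.20) and Avp (-1.79 ± 0.44), the hypothalamic hormones oxytocin and vasopressin, and Gal, galanin (-1.18 ± 0.15), were also lower. Avp ranged from 6.71 to 10.43 in the caudate-putamen, with 10.15 and 10.43 in AChE-S and at most 8.53 elsewhere. The interneuron peptide genes Sst, Npy and Cort differed less than Vip and Cck. Sst, somatostatin, was lower (-0.33 ± 0.05), Npy, neuropeptide Y, was higher with overlapping arrays (0.27 ± 0.08), and Cort, cortistatin, was higher (0.52 ± 0.08).

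**Figure D2:**
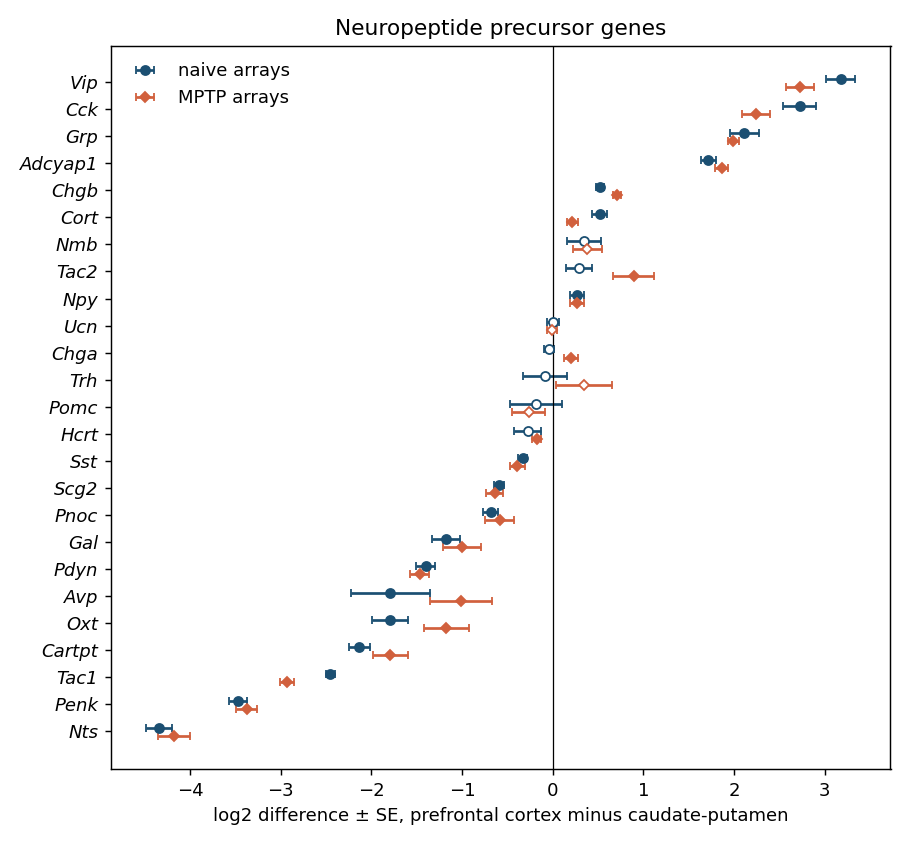
Log2 difference (x axis, prefrontal cortex minus caudate-putamen, ± standard error) of 25 neuropeptide precursor genes in 12 naive arrays (circles) and 11 MPTP arrays (diamonds); filled symbols are called. In the naive arrays the genes run from Nts at -4.34 to Vip at 3.17.

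Some peptide genes carry a cyclic AMP response element, the 8-base palindrome TGACGTCA, close to their start. The motif occurs in 1.79% of the 32851 RefSeq promoters and was found in 5 of 24 promoters of the measured peptide genes, those of Cartpt, Chgb, Scg2, Sst and Ucn. Windows of 60 bases from 3 of them are shown, with the motif in capitals, because these genes share the motif and differ in direction. They lie, in GRCm38.p6, at chr13:99900762-99900821, minus strand (Cartpt), chr16:23890859-23890918, minus strand (Sst), and chr2:132781544-132781603, plus strand (Chgb).
Cartpt: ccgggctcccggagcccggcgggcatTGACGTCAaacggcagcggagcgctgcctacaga
Sst: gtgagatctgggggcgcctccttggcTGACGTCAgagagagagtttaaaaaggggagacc
Chgb: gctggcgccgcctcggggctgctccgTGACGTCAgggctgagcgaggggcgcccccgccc
Cartpt, Sst and Scg2, a secretogranin (-0.59 ± 0.06), were lower in the prefrontal cortex, Chgb, the granule protein chromogranin B, was higher (0.52 ± 0.05), and Ucn, urocortin, was not called (0.00 ± 0.07). The 5 genes thus did not share a direction.

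Receptors for peptides and amines were split as well. Of 21 measured peptide, opioid and cannabinoid receptor genes, 8 were higher and 6 lower (7 and 8 with prefrontal control 1 and 2). The cholecystokinin receptor gene Cckbr was 3.27-fold higher in the prefrontal cortex (1.71 ± 0.08, adjusted p = 1.25e-08), like its ligand gene Cck, and Crhr1, the receptor for corticotropin-releasing hormone, 2.36-fold higher (1.24 ± 0.07). The neuropeptide Y receptor genes went opposite ways, Npy1r higher (0.93 ± 0.06) and Npy2r lower (-1.48 ± 0.11). Of 18 serotonin, noradrenaline and histamine receptor genes, 7 were higher and 6 lower. Htr2c, a serotonin receptor, gave -1.72 ± 0.12 and Adra2c, the alpha-2C adrenoceptor, -1.38 ± 0.08, whereas Adra1b, an alpha-1 adrenoceptor, gave 0.86 ± 0.08.

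Cortical glutamatergic genes were higher in the prefrontal cortex: 14 of 16 measured, with a median of 1.04, and 2 lower. Neurod6 read 9.86, 10.44 and 10.75 in the prefrontal cortex and 5.13, 6.75 and 8.37 in the caudate-putamen (13-fold, 3.69 ± 0.36, adjusted p = 4.12e-06). Its caudate-putamen arrays split by strain, at 8.37 and 7.61 in FVB/N, 5.13 and 5.61 in AChE-S and 6.52 and 6.99 in AChE-R. Neurod1, a related factor, read 8.66, 8.78 and 8.89 against 5.11, 5.87 and 6.69 (7.24-fold, 2.85 ± 0.18, adjusted p = 6.97e-08). Tbr1, a factor of deep-layer neurons, was 4.72-fold higher (2.24 ± 0.21), Dkk3, a secreted protein of the Dickkopf family, 3.5-fold (1.81 ± 0.13), and Mef2c, an activity-regulated factor, 2.48-fold (1.31 ± 0.08). The members that were lower were Slc17a6 and Baiap2. Slc17a6, which loads glutamate into vesicles in many subcortical neurons, gave -1.19 ± 0.25 and was highest in the AChE-S caudate-putamen (9.97 and 10.81). Baiap2, an actin regulator of spines, gave -0.32.

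Other leading prefrontal genes belonged to no single function. C1ql3, a synaptic protein of the C1q family, read 11.47, 11.64 and 11.67 against 8.29, 8.93 and 9.66 (6.44-fold, 2.69 ± 0.16). Tnnc1 and Myl4, known as muscle contractile proteins, were 7.36-fold (2.88 ± 0.15) and 7.34-fold higher (2.88 ± 0.30). Rspo2 and Frzb, secreted modulators of Wnt signalling, were 6.58-fold and 5.04-fold higher. Smoc2, a matrix protein, was 5.23-fold higher, and Cd34, a surface glycoprotein of vessels and blood progenitors, was 4.79-fold higher (2.26 ± 0.12). Of 20 measured vessel genes, 1 was higher and 11 lower, and the arrays did not overlap for 1. This balance turned with the arrays used: 9 were higher and 1 lower with prefrontal control 1 and 2, and 7 higher and 4 lower in the arrays of MPTP-exposed mice.

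Layer markers did not all favour the cortex. Upper-layer genes had 5 of 12 higher and 3 lower, among them Stard8 (1.68 ± 0.08), Rasgrf2, an exchange factor for Ras (1.20 ± 0.10), Cux2, a homeobox factor (1.13 ± 0.08), and Lamp5, a membrane protein (1.05 ± 0.08). Layer 5 genes had 5 of 9 higher and 4 lower. Fezf2, which specifies subcortical projection neurons, read 8.20, 8.75 and 8.98 against 6.11, 6.76 and 7.5 (3.86-fold higher, 1.95 ± 0.19), and Npr3, a natriuretic peptide receptor, was 2.49-fold higher (1.32 ± 0.06). Bcl11b, which acts with Fezf2 in layer 5 and is also a factor of spiny neurons, was lower (-1.36 ± 0.12). Of 13 layer 6 and subplate genes, 4 were higher and 6 lower (6 and 6 with prefrontal control 1 and 2); the lower ones included Ppp1r1b and the transcription factor genes Tle4 (-1.10 ± 0.06) and Foxp2 (-1.08 ± 0.09), which spiny neurons also express.

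Genes of GABAergic neurons were divided, 7 of 22 higher and 10 lower, against 9 and 5 with prefrontal control 1 and 2 and 9 and 6 in the arrays of MPTP-exposed mice. Slc32a1, the vesicular GABA transporter, read 9.45, 9.58 and 9.84 in the prefrontal cortex and 11.19, 11.30 and 11.46 in the caudate-putamen (3.29-fold lower, -1.72 ± 0.07, adjusted p = 2.33e-09). Gad1, a GABA-synthesising enzyme, was lower by less (-0.40 ± 0.07), and Pvalb, a calcium buffer of fast-spiking interneurons, was higher (0.88 ± 0.06) with overlapping arrays. Lhx6, a factor of interneurons from the medial ganglionic eminence, was 2.00-fold lower (-1.0 ± 0.11). The transporter and enzyme genes of GABA release therefore stood on the caudate-putamen side, and Vip, Cck and Pvalb on the prefrontal side.

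**Figure D3:**
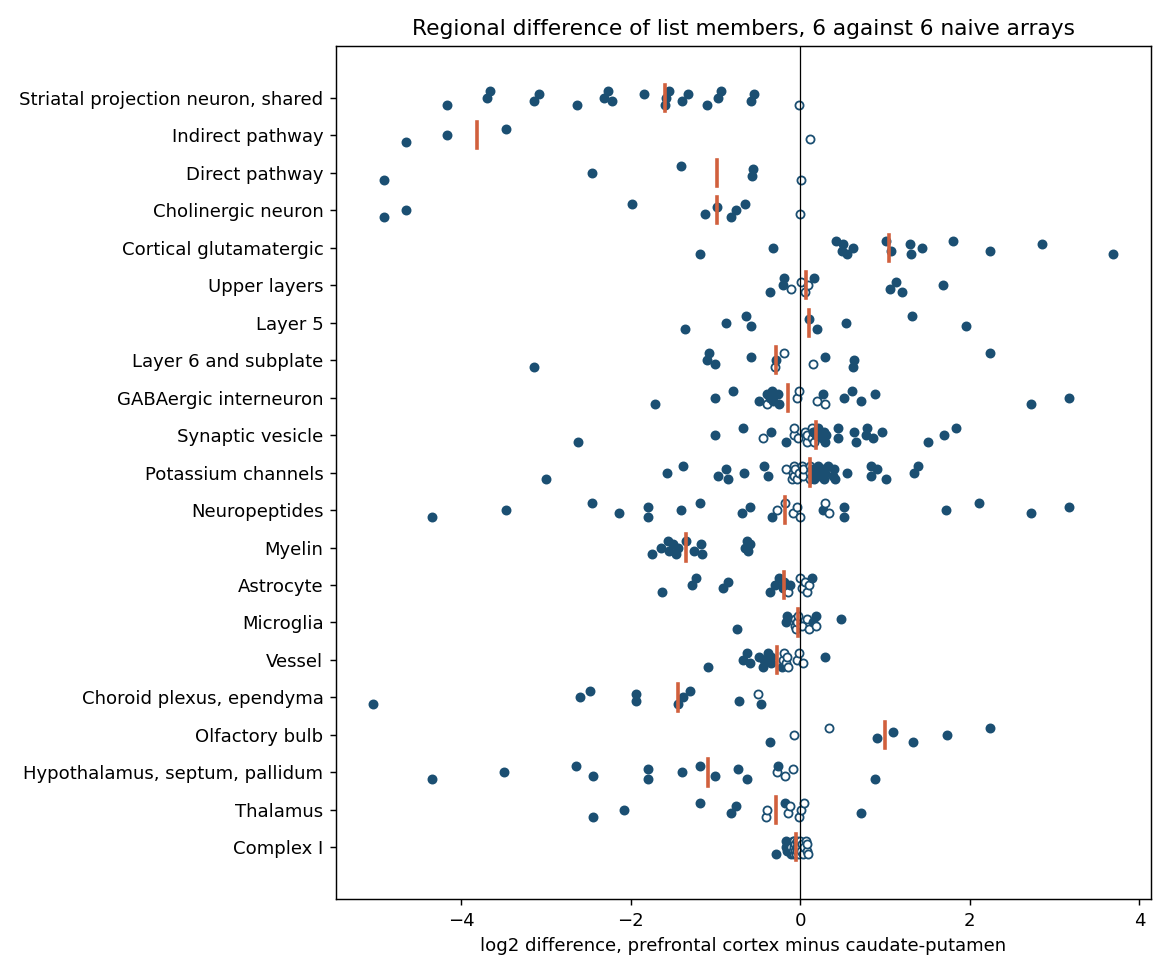
Log2 difference (x axis, prefrontal cortex minus caudate-putamen) of each measured member of 21 gene lists in the naive arrays; filled points are called, open points are not, and bars mark list medians. Spiny neuron, cholinergic, myelin and choroid plexus members lie mostly to the left of 0 and cortical glutamatergic members to the right.

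Among transcription factors that pattern the forebrain, 19 of 37 measured were lower in the prefrontal cortex and 7 higher, 14 and 3 of them by at least 1. With prefrontal control 1 and 2, 13 were lower and 13 higher. Besides Lhx8, the lower group held Zfp503, a zinc finger factor of the developing striatum (-1.85 ± 0.09), Dlx6, a homeobox factor of GABAergic neurons (-1.47 ± 0.10), Foxp1, a forkhead factor of spiny neurons (-1.10 ± 0.08), and Six3 (-1.03 ± 0.07). Zic1 (-2.45 ± 0.31) varied more, from 6.87 to 9.07 in the prefrontal cortex. The higher group was led by Nr2f1, the nuclear receptor COUP-TFI that patterns the cortex, at 9.88, 9.97 and 10.15 against 7.74, 8.29 and 8.73 (3.33-fold, 1.73 ± 0.15, adjusted p = 1.16e-06). Satb1, a chromatin organiser, was also higher (1.08 ± 0.08).

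Ion channels and synaptic genes differed in particular members. Potassium channel genes had 20 of 43 higher and 9 lower. Kcna5, a voltage-gated channel, read 5.26, 5.53 and 6.27 in the prefrontal cortex and 8.32, 8.65 and 8.83 in the caudate-putamen (7.97-fold lower, -3.0 ± 0.12, adjusted p = 3.02e-09), and Kcnab1, a channel subunit, gave -1.57 ± 0.09. Kcnj3 (1.39 ± 0.07) and Kcnj9 (1.34 ± 0.07), which form G protein-gated channels, were both higher in the prefrontal cortex. Sodium and calcium channel genes had 12 of 32 higher and 13 lower (16 and 9 in the arrays of MPTP-exposed mice), with Ryr3, a calcium release channel of the endoplasmic reticulum, 5.13-fold lower (-2.36 ± 0.11).

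Synaptic vesicle genes had 18 of 33 higher and 5 lower, with a median of 0.19. The calcium sensors Doc2a and Doc2b changed sides, Doc2a higher (9.69, 9.78 and 9.98 against 7.70, 7.89 and 8.37; 1.84 ± 0.10) and Doc2b lower (6.64, 7.37 and 7.83 against 9.74, 9.95 and 10.01; -2.62 ± 0.14). Stx1a, a syntaxin of the fusion machinery, was 3.25-fold higher (1.70 ± 0.13). Among ionotropic glutamate receptor genes, 3 of 13 were higher and 6 lower (4 and 2 in the arrays of MPTP-exposed mice), the largest being Grik2, a kainate receptor subunit (-1.12 ± 0.08). Syt1, the main calcium sensor of fast release, and the kinase gene Camk2a were higher by 0.86 ± 0.11 and 1.43 ± 0.21, as was Gria3, an AMPA receptor subunit (0.84 ± 0.08). These 3 directions rest on the choice of prefrontal arrays: with control 1 and 2 in place of 3 and 4 the differences were -0.88, -0.67 and -0.96.

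Growth factor and guidance genes were also divided, with 16 of 40 and 20 of 52 measured genes higher and 15 and 17 lower. With prefrontal control 1 and 2, 24 growth factor genes were higher and 10 lower. Bdnf, the neurotrophin that the cortex supplies to the striatum, was 2.22-fold higher in the prefrontal cortex (1.15 ± 0.10, adjusted p = 1.17e-06). Gdnf, a survival factor for dopamine neurons, read 4.68, 4.80 and 4.90 against 6.26, 6.36 and 6.79 and was 3.11-fold lower (-1.64 ± 0.07, adjusted p = 5.23e-09), as was its receptor gene Gfra1 (2.42-fold, -1.27 ± 0.15). Tgfa, a ligand of the epidermal growth factor receptor, was 4.51-fold lower (-2.17 ± 0.10). Among guidance genes, Efnb3, an ephrin (-1.63 ± 0.12), and Ntn1, netrin 1 (-1.30 ± 0.08), were lower, and Slit2, a repellent of axons, was higher (0.90 ± 0.05).

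Every measured myelin and oligodendrocyte gene, 15 of 15, was lower in the prefrontal cortex with no overlap, at a median of -1.34. Mobp, a myelin protein, read 10.36, 10.84 and 11.17 against 12.38, 12.63 and 12.81 (3.35-fold, -1.74 ± 0.12, adjusted p = 2.06e-07). Mag, an adhesion protein of inner myelin, gave -1.55 ± 0.11, Mbp, a main myelin protein, -0.59 ± 0.06, and Olig2, a lineage factor, -0.62 ± 0.10. Astrocyte genes had 11 of 18 lower and 1 higher (median -0.19), led by Agt, angiotensinogen (-1.63 ± 0.15). Microglial genes had 3 of 15 higher and 3 lower, with Cd68, a lysosomal protein, at -0.75 ± 0.06. Immediate early genes, which neuronal activity and handling induce, had 8 of 21 higher and 1 lower, and Ier2 gave 0.93 ± 0.12. Mitochondrial complex I genes had 0 of 31 higher and 6 lower, the lowest at -0.28; with prefrontal control 1 and 2, 4 were higher and 2 lower.

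Markers of tissue next to each dissection were examined array by array. Choroid plexus and ependymal genes had 10 of 11 lower in the prefrontal cortex, with list means of 5.42 to 5.57 there and 6.47 to 7.93 in the caudate-putamen. Ttr read 7.86, 8.36 and 8.70 against 12.12, 13.64 and 13.92 (32.9-fold, -5.04 ± 0.24, adjusted p = 8.15e-09). Kl, the klotho gene of choroid plexus, was 6.06-fold lower (-2.60 ± 0.36) and its caudate-putamen arrays read 6.04 and 6.54 in AChE-R and 7.41 to 9.0 in the other strains. The part of attached choroid plexus in these differences was not tested.

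Of 16 measured genes of the hypothalamus, septum and pallidum, 12 were lower in the prefrontal cortex and 1 higher, with list means of 7.46 to 7.70 against 8.57 to 9.43. Beside the peptide genes Nts, Oxt, Avp and Gal, they include Ecel1, a membrane peptidase (11.3-fold, -3.50 ± 0.08), and Baiap3, a regulator of granule release (6.28-fold, -2.65 ± 0.12). Thalamic genes had 6 of 14 lower and 1 higher, with Prkcd, protein kinase C delta, at -2.08 ± 0.20. The highest means of both lists were those of the 2 AChE-S caudate-putamen arrays. The part of neighbouring tissue in these differences was not tested.

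In the prefrontal arrays, genes of olfactory bulb projection neurons varied most. Of 8 measured, 5 were higher in the prefrontal cortex and 1 lower. The largest rise was that of Tbr1, which is also counted with the cortical glutamatergic genes. Cdhr1, a cadherin-related protein of mitral cells, read 9.07 and 8.82 in FVB/N, 8.08 and 6.45 in AChE-S and 9.78 and 10.77 in AChE-R, against 6.77 to 7.45 in the caudate-putamen (1.73 ± 0.37, adjusted p = 0.00189). AChE-S control 4 lay below every caudate-putamen array, so the regions overlapped. Doc2g, a gene of the same cells, ordered the prefrontal extremes in the same way, from 6.61 to 9.79 (1.33 ± 0.36). Their part in Th, whose extremes fell in the same 2 arrays, was not tested.

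**Figure D4:**
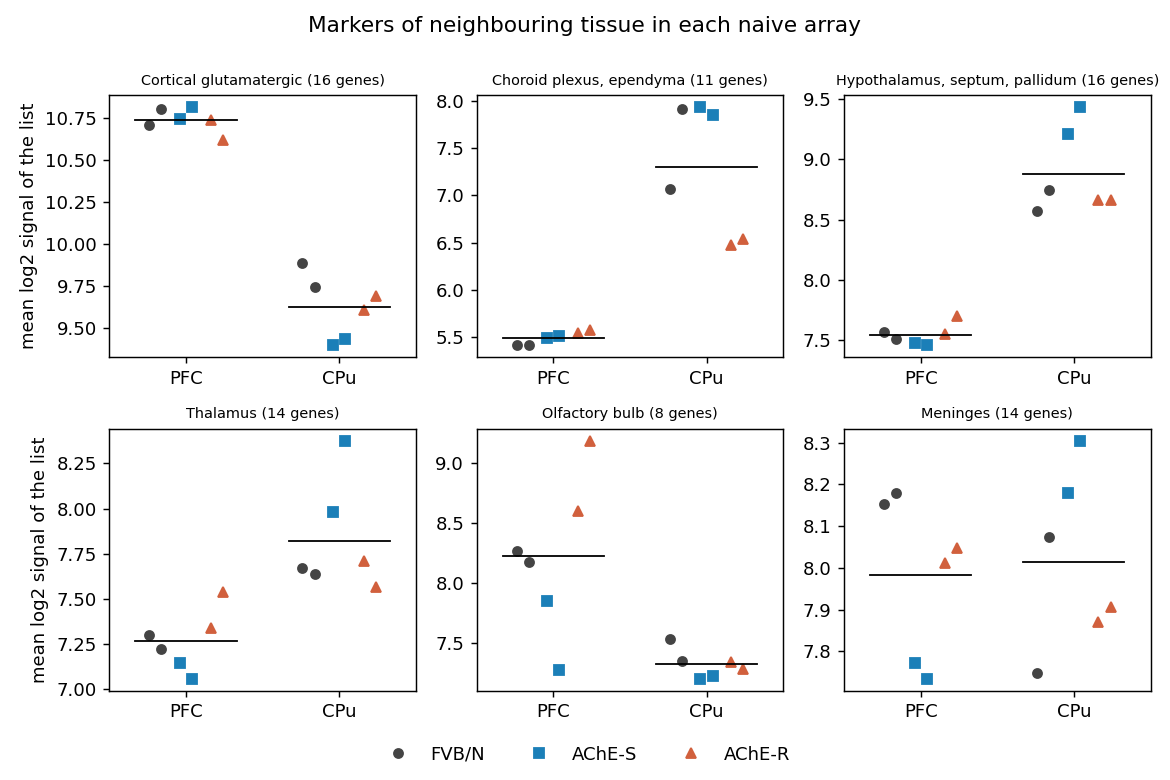
Mean log2 signal (y axis, scale differing by panel) of 6 lists of marker genes in each naive array; symbols give the strain and lines the mean of 6 arrays. Choroid plexus means lie between 5.42 and 5.57 in the prefrontal cortex and between 6.47 and 7.93 in the caudate-putamen, and olfactory bulb means spread over 7.28 to 9.18 in the prefrontal cortex.

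Whether the regional difference depended on the transgene was tested as an interaction with strain. The 5' minus 3' signal of the actin control was -1.41 and -1.26 in the FVB/N caudate-putamen arrays. It was -0.99 to -0.67 in the other arrays used. That of the Gapdh control was -0.04 and 0.02, within the -0.06 to 0.06 of the others. The part of this measure in the strain results was not tested. Against FVB/N, 227 probe sets were called for AChE-S (1.00%; 42 higher, 185 lower), a count that single arrays moved widely. It was 12 and 13 without AChE-S prefrontal control 3 or 4, 43 and 81 without FVB/N prefrontal control 3 or 4, and 29 without FVB/N caudate-putamen control 1. It was 452 and 112 without AChE-S caudate-putamen control 1 or 2, and 326 without FVB/N caudate-putamen control 2, the array with conflicting labels. Baiap2l1, an actin-binding protein, had the smallest p: it read 8.51 and 8.62 in the AChE-S prefrontal cortex and 5.46 to 6.51 in every other array, so its difference was 2.20 larger in AChE-S (adjusted p = 0.000497). Hspb3, a small heat shock protein, behaved alike, at 7.73 and 7.62 in the AChE-S prefrontal cortex and 6.81 at most elsewhere (1.20, adjusted p = 0.00556). Neurod6 (2.85, adjusted p = 0.0112), Tbr1 (1.59, adjusted p = 0.0201), Myl4 (2.10, adjusted p = 0.0266) and Rspo2 (1.30, adjusted p = 0.0281) also had larger differences in AChE-S, and for Neurod6, Tbr1 and Myl4 the AChE-S caudate-putamen arrays were the lowest of all. With each of the 12 arrays left out in turn, Baiap2l1 and Hspb3 were called 12 times, Neurod6 10, Tbr1 and Myl4 8 and Rspo2 7 times, with adjusted p up to 0.117. The mean of the cortical glutamatergic list was lowest in the AChE-S caudate-putamen; the part of cortical tissue in the samples was not tested.

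In the other direction stood Aldh1a2, which makes retinoic acid in the meninges (-1.26, adjusted p = 0.00601), Slc6a20a, a proline transporter (-1.71, adjusted p = 0.00954), and Fmod, a collagen-binding protein of fibrous tissue (-0.97, adjusted p = 0.00954). With 1 array left out, Aldh1a2 was called 12 times and Slc6a20a and Fmod 11 times. Slc6a20a read 7.58 and 7.71 in the AChE-S prefrontal cortex and 8.42 to 9.06 in that of the other strains. Of 14 measured meningeal fibroblast genes, 4 were called lower in this test and 0 higher, and the list's mean was lower in the AChE-S prefrontal cortex (7.73 at the lowest) than in the other prefrontal arrays. In the caudate-putamen the list's mean was highest in the AChE-S arrays (8.179 and 8.305, against 7.747 and 8.074 in FVB/N), so both regions entered the difference. The part of meninges was not tested. For AChE-R, 0 probe sets were called by limma; 1524 had an unadjusted p under 0.05 and the smallest adjusted p was 0.0802. Without FVB/N caudate-putamen control 1 this count was 11.

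The regional difference was then compared with that of the MPTP-exposed mice, 6 prefrontal and 5 caudate-putamen arrays that share no array with the naive ones. MPTP was given in 4 injections of 20 mg/kg at intervals of 2 h, with tissue collected 4 days later; AChE-R caudate-putamen has 1 array. In these 11 arrays, 11631 probe sets were called. Of the 10972 naive calls, 6496 were called in the same direction (59.2% of the naive and 55.9% of the MPTP calls) and 616 in the opposite one. Of the 578 naive differences of at least 1, 563 were called in the same direction (97.4%). For 206 of the 578 the change with MPTP was itself called, and in 157 of these the difference was smaller in size after MPTP. The 578 were picked by their size in the naive arrays, which by itself favours smaller values in other arrays. The count of 157 therefore cannot tell an effect of MPTP from this selection. In the MPTP arrays, 656 probe sets were called with a difference of at least 1. Chrm4 (-0.12), Lhx6 (-0.36) and Slc17a6 (-0.38) were not called in the MPTP arrays. For leading markers of both regions, Drd2 gave -4.75 ± 0.09, Isl1 -4.68 ± 0.08, Penk -3.37 ± 0.11, Vip 2.73 ± 0.15 and Neurod1 2.76 ± 0.13 in the MPTP arrays.

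The change in the regional difference was called for 7349 probe sets (32.5%; 4188 higher and 3161 lower after MPTP), and for 6868 without FVB/N caudate-putamen control 2. Among the spiny neuron genes, Tac1 differed more between regions after MPTP (-2.93 ± 0.07; change -0.51 ± 0.07, adjusted p = 0.000175), while Ptpn5 (change 0.45 ± 0.06, adjusted p = 0.000134) and Pde1b (0.36 ± 0.06, adjusted p = 0.000729) differed less between regions. The cholinergic genes Ache (0.59 ± 0.10, adjusted p = 0.000466) and Slc18a3 (0.57 ± 0.11, adjusted p = 0.00107) differed less as well. For Ache this depended on the naive prefrontal arrays used. Its regional difference was -1.12 in the naive arrays used here and -0.57 in the MPTP arrays. With naive prefrontal control 1 and 2 in place of 3 and 4 it was -0.605. The smallest p among named genes belonged to Ap2a1, a subunit of the endocytic adaptor AP-2, which was lower in the naive prefrontal cortex (-0.38 ± 0.04) and higher in the MPTP-exposed one (0.48 ± 0.04; change 0.86, adjusted p = 1.19e-07). Vwf, von Willebrand factor of endothelial cells, gave -1.09 ± 0.17 in the naive arrays and 0.48 ± 0.10 in the MPTP arrays (adjusted p = 6.1e-07). With naive prefrontal control 1 and 2 in place of 3 and 4, Ap2a1 (0.26) and Vwf were called higher in the naive prefrontal cortex too. The change of sign of both genes therefore depended on the naive prefrontal arrays used.

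By list, the change was higher for 12 of 14 meningeal genes (median 0.72), 11 of 20 vessel genes and 9 of 13 ionotropic glutamate receptor genes, and lower for 17 of 29 ribosomal protein genes and 10 of 15 microglial genes, against 18.5% higher and 14% lower over all probe sets. The meningeal, vessel and ionotropic glutamate receptor changes depended on the naive prefrontal arrays used. The median regional difference of the meningeal list was 0.10 in the naive arrays used here and 0.64 in the MPTP arrays. With naive prefrontal control 1 and 2 in place of 3 and 4 it was 0.68, with 10 genes higher and 1 lower. In the same order, the medians were -0.28, 0.06 and 0.24 for vessel genes and -0.20, 0.06 and 0.04 for ionotropic glutamate receptor genes. For ribosomal protein genes they were -0.12, -0.34 and -0.02, and for microglial genes -0.02, -0.31 and 0.14. With control 1 and 2, the ribosomal protein and microglial lists thus stood further from the MPTP arrays. The bioB hybridisation controls read 7.32 to 7.76 in the MPTP prefrontal arrays, 6.48 to 6.97 in the naive prefrontal arrays and 6.30 to 6.92 in the caudate-putamen arrays of both treatments. The dap controls read 7.15 to 7.57 in the MPTP prefrontal arrays, above the naive prefrontal range given earlier. The part of array handling in the change was not tested.

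**Figure D5:**
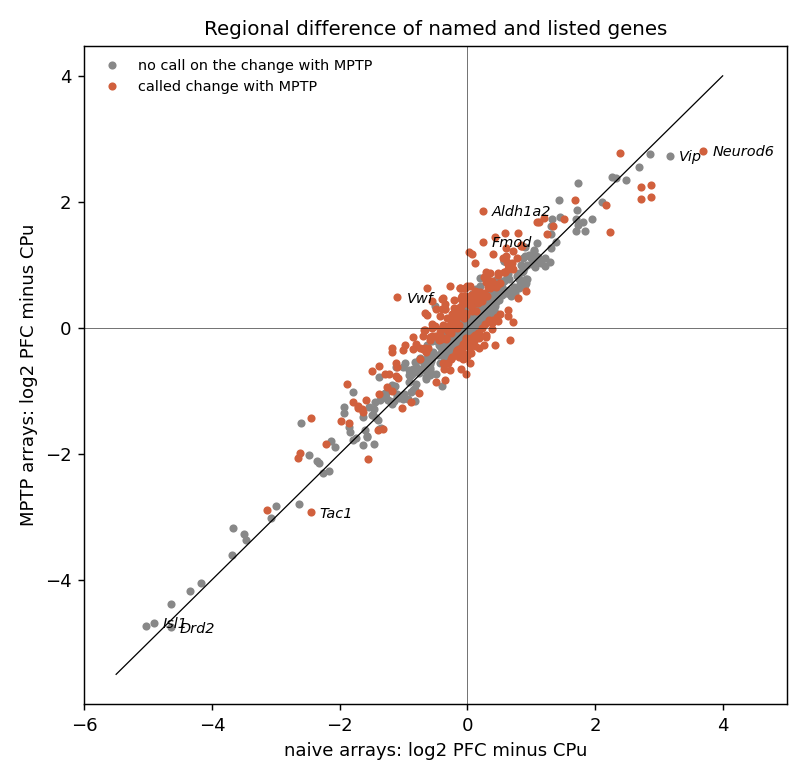
Log2 difference between regions (prefrontal cortex minus caudate-putamen) in 12 naive arrays (x axis) and 11 MPTP arrays (y axis) for 762 named and listed genes; the diagonal marks equal differences and orange points the 291 genes whose difference was called as changed. Large differences such as those of Drd2 and Vip lie near the diagonal, whereas Aldh1a2, Fmod and Vwf lie above it.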

How the data were processed

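The authors deposited log2 expression values, which the submitters' processing notes link to RMA, Affymetrix Expression Console and Affymetrix Power Tools. Versions and settings: not given in the sources used here. RMA subtracts background, normalizes between arrays and summarises probes, which compresses differences near background; the deposited medians still differ between arrays. The values were used as deposited. After removal of 64 control probe sets, 22626 were tested; 20380 carry 1 symbol, 691 several and 1555 none, per the platform annotation. No detection calls came with the values, so which signals lie above background is not known. The number of arrays limits the precision.

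Differences were estimated with limma 3.58.1 in R 4.3.3 (lmFit and eBayes, two-sided, Benjamini-Hochberg over all probe sets). The regional fit had terms for strain and region (12 arrays, 8 residual degrees of freedom). Interactions with strain used a mean per group (6 degrees), and the change with MPTP used 23 arrays (11 degrees). The fits were tested on simulated data.

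The arrays and 45 gene lists were chosen with earlier results of these data known. Genes were named by rule: the 12 largest called differences in each direction without overlap, the 6 members of a list with the smallest p and any member called against its list, the neuropeptides and cholinergic genes, and the 5 smallest p of each interaction. Arpp19, Camk2a, Cyp26a1, Gad1, Lcn2, Mbp, Olig2, Ptpn5, Slc6a3 and Th lie outside the rule and were chosen after their values were seen, and not every gene the rule allows is described. Lists are described by counts, with no set test.

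Whether replicate numbers pair arrays was checked from the residuals of like-numbered arrays within a region. The correlations ran from -0.359 to 0.154, so the numbers were not taken to pair arrays, and the regions share no number. Promoters are RefSeq sequences of GRCm38.p6. The alternatives are named in the closing section.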

Additional observations from a re-analysis of the deposited data

Results flagged for a closer look

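In 5 of 88 checks of a list's mean over the 6 arrays of a region, 1 array stood far from the rest by Dixon's criterion; chance alone marks about 5% of such groups. The cholinergic list read 5.863 in AChE-S prefrontal control 4, against 5.774 in the nearest array. AChE-S caudate-putamen control 2 was lowest for upper-layer genes (8.272, nearest 8.352) and layer 5 genes (8.621, nearest 8.764) and highest for sodium and calcium channel genes (8.655, nearest 8.545). AChE-S caudate-putamen control 1 was highest for metabotropic glutamate receptor and Homer genes (7.108, nearest 6.945).

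The regional difference itself differed between groups by limma's interaction tests. Between AChE-S and FVB/N, 227 probe sets were called, with Baiap2l1 (2.20), Hspb3 (1.20), Aldh1a2 (-1.26), Slc6a20a (-1.71) and Fmod (-0.97) at the smallest p. Between MPTP-exposed and naive arrays, 7349 were called, with Ap2a1 (0.86), H2-Ea (-0.85), Mpp2 (0.91), Cldnd1 (0.99) and Anpep (0.97) at the smallest p of named genes.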

How the results depend on the processing

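The count of 10972 called probe sets stayed within 1.5 times under quantile normalization (11107), a trended and robust variance (10998), removal of the dimmest 0.25 of probe sets (9333), no strain term (9961), array medians subtracted (11245), all 12 naive prefrontal arrays (7779) and 1 array left out at a time (9907 to 10718). Chosen after the values were seen, leaving out both FVB/N groups gave 9310. Fitted within a strain, 3918 were called in FVB/N, 6005 in AChE-S and 5005 in AChE-R, each from 4 arrays. With prefrontal control 1 and 2 in place of 3 and 4, differences of at least 1 numbered 999, or 981 with a replicate block. The replicate numbers gave no evidence of pairing, and with the number within region as a block 10135 probe sets were called for the region, 95 for AChE-S against FVB/N and 1 for AChE-R; without single arrays the strain counts ran from 12 to 452 and from 0 to 11.

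Directions turned for Syt1 (-0.88; -0.0058 with all 12), Gria3 (-0.96; -0.061 with all 12), Camk2a (-0.67), Vwf (0.55), Ap2a1 (0.26), Slc6a3 (0.50) and Cyp26a1 (0.28) with control 1 and 2 in place of 3 and 4, for Vwf (0.48) and Ap2a1 (0.48) in the MPTP arrays, and in AChE-S alone for Th (-0.88), Aldh1a2 (-0.48), Fmod (-0.35) and Slc6a20a (-0.89). The cause was not tested. Leaving out 1 array ended no regional call on a gene described here.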
